A study of Oryza sativa Japonica Group with 17 samples.

Results

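Heat shock proteins (HSPs) and heat shock factors (HSFs) were followed in roots of rice that lack one or other cytosolic glutamine synthetase. The members were 43 genes of the 17905 that the array's annotation ties to a probe set of 1 gene. A gene was taken when its symbol or any synonym, after an optional Os, began with HSP or HSF followed by digits or by A, B or C and digits. Each gene was read through 1 probe set, the one with the highest mean over all 17 samples. They were 19 small HSPs, 3 HSP90 genes, 1 HSP100 gene and 20 HSFs, of which 12 were class A, 5 class B and 3 class C. The rule found no HSP40, HSP60 or HSP70, which rice annotation mostly lists under other names. The rule used names only, apart from the mean signal that picked among probe sets of the 14 genes with more than 1, and the families were chosen with earlier results of these data known.

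Glutamine synthetase joins ammonium to glutamate, and OsGS1;1 and OsGS1;2 encode cytosolic forms of it. All plants were of the cultivar Nipponbare and were raised hydroponically for 18 days, with 1 mM ammonium as the nitrogen source and no heat treatment in the labels. NC2373 and ND8037 are separate insertion lines of OsGS1;1. NC2373 gs1;1 (n = 2) was set against NC2373 null (n = 3), and ND8037 gs1;1 (n = 3) against ND8037 null (n = 3). The null plants carry no insertion and are offspring of heterozygous plants of that line, and the homozygous groups are called the NC2373 mutant and the ND8037 mutant. The gs1;2 mutant (n = 3) has no such null here and was set against wild type (n = 3), so that background mutations of its line cannot be told apart from the loss of OsGS1;2. Each n counts separately numbered plants in the labels, and nothing says that they came from separate cultures, so p-values measure the spread between these samples.

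Small HSPs form oligomers that hold unfolding proteins and keep them from clumping. They are sorted by location: cytosolic classes I, II and III, and forms of the endoplasmic reticulum, mitochondria, plastids and peroxisomes. HSP90 completes the folding of signalling proteins, and HSP100 pulls proteins out of aggregates. HSFs bind heat shock elements upstream of these genes; those of class A carry an activation domain, and those of classes B and C lack the one known from class A. Many of the HSP genes are low at normal growth temperature and rise steeply with heat.

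By their signal the arrays fell into 2 sets, which the labels do not name. The 6 ND8037 arrays had medians of 4.68 to 4.71 on the log2 scale, against 5.37 to 5.41 for the other 11, and their actin 3' probe sets exceeded the 5' ones by 4.62 to 5.02, against 2.58 to 3.02. Levels were therefore set side by side only within a set. OsGS1;1 differed from its null by -3.37 in the NC2373 mutant and -2.24 in the ND8037 mutant, and OsGS1;2 by -5.43 in gs1;2 against wild type, so the labels fit the disrupted genes. The mean of 7 root genes, such as the silicon transporter Lsi1, was 8.06 to 8.50 in the first set and 7.77 to 7.93 in the ND8037 set. No other tissue was there for comparison, so this mean could not check the labelled tissue. The genes were of unlike signal: in the first set, group means were 3.73 to 4.19 for OsSCR1 and 12.86 to 13.44 for Lsi1. Of these 7, Lsi2, a silicon efflux transporter, was lower in gs1;2 by a difference of -0.81 (adjusted p = 0.047) and in the mean of the gs1;1 lines by -0.52 (adjusted p = 0.042). The sodium transporter gene HKT1.5 was of low signal, with group means of 4.63 to 5.18 in the first set and 4.23 to 4.59 in ND8037. It was higher by 0.46 in the mean of the gs1;1 lines (adjusted p = 0.012). Of the 7, 0 were called in either gs1;1 line alone. The mean of 7 genes of green tissue was higher in both gs1;1 lines than in their nulls. It was 8.05 to 8.63 in NC2373 null and 9.68 to 10.00 in the NC2373 mutant, then 7.73 to 8.27 in ND8037 null and 8.58 to 9.60 in the ND8037 mutant. It was 7.01 to 7.92 in wild type and 6.85 to 7.18 in gs1;2. Of the 7, 4 rose in the NC2373 mutant and 3 in the ND8037 mutant, 0 were called in gs1;2 in limma (CAB2R and OsrcaA1 were lower at an unadjusted p under 0.05), and RBCS1 had a group mean of 2.01 to 2.52 in every group. Their part in the results below was not tested. In whole roots, fewer cells of a type and less RNA per cell cannot be told apart.

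Signal is given as log2, so a difference of 1 is a doubling, and a level of 1 probe set cannot be ranked against another's as an amount of RNA. The probe set of HSP81-3, a cytosolic HSP90, had the highest signal of its class, 13.83 ± 0.06 (SD, n = 3) in wild type. In the same plants HSP17.9A, a cytosolic class I small HSP, read 11.35 ± 0.09, HSFB1, a class B factor, 10.40 ± 0.17, and HSFA1, a class A factor, 10.00 ± 0.07. HSP101, the single HSP100 gene and the disaggregase tied to heat tolerance in plants, read 4.32 ± 0.19. A mean over all samples of at least 5 was reached by 35 of the 43 members, and 8 lay under it, among them HSP101, HSP16.0, HSP16.6, HSP16.9B and HSP26.7. This mean pools both array sets, so the lower ND8037 signal enters it. HSP16.9A lay under 5 with group means of 5.08 to 5.28 in the first set and 4.56 to 4.71 in ND8037. Replicates were close for most genes: the median SD within a group was 0.13, and the widest was 1.02, for HSFA3 in wild type.

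In gs1;2, 5 of 43 members rose and 0 fell, at an adjusted p under 0.05 in limma. They were HSP18.6, HSP17.9A, HSP24.1, HSP16.0 and HSP81-1, so 4 of the 19 small HSPs and 1 of the 3 HSP90 genes. Of all probe sets, 1.67% rose and 2.37% fell in this comparison, 4.03% together, and with 1 probe set per gene 6.86% were called. The median difference was 0.10 over the members and 0.15 over the small HSPs, against 0.022 over all probe sets tested. Without adjustment, at p under 0.05 in limma, 9 members were higher and 3 lower. The share of all probe sets at that unadjusted cutoff was not counted, so these numbers have no baseline. Leaving out any 1 of the 6 plants reduced the calls to between 1 and 3.

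**Figure D1:**
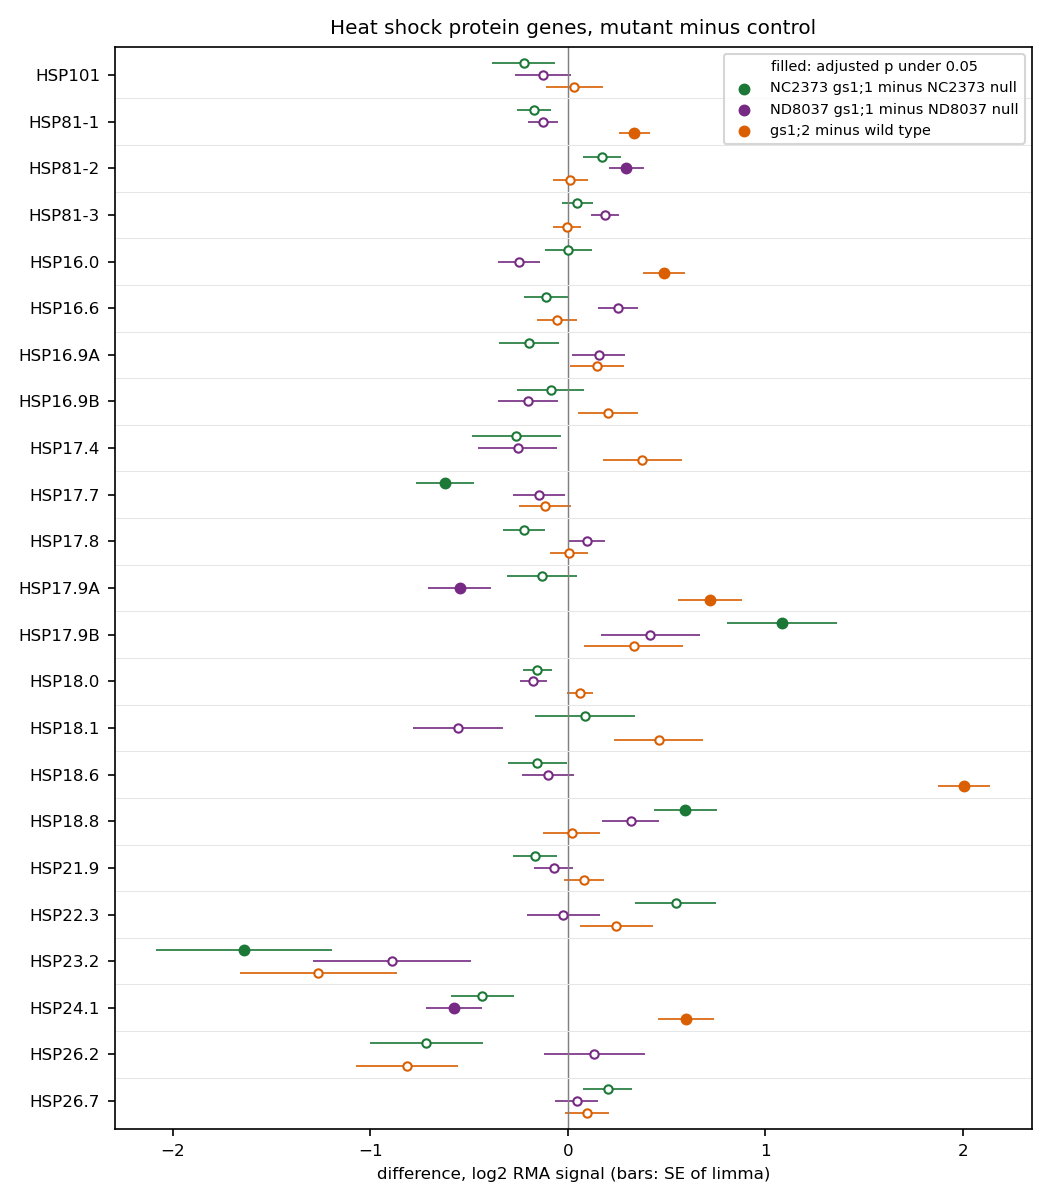
Difference between mutant and control for each HSP gene on the log2 scale (horizontal axis), for NC2373 gs1;1 (green), ND8037 gs1;1 (purple) and gs1;2 (orange). Bars are the SE of the fit, and filled points have an adjusted p under 0.05. HSP18.6 in gs1;2 lies farthest to the right at 2.01, and HSP23.2 lies left of 0 in all 3 comparisons.

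HSP18.6 (LOC4330933, chromosome 2), a small HSP of cytosolic class III, moved most. Its signal was 5.07, 5.20 and 5.03 in the wild-type plants 627, 628 and 629, and 7.40, 6.93 and 6.98 in the gs1;2 plants 354, 355 and 356. All mutant plants stood far above all wild-type plants. The difference was 2.01 (SE 0.133, adjusted p = 8.4e-07), or 4.02-fold. Without any single plant of either group it stayed between 1.86 and 2.09, with adjusted p from 2.9e-06 to 1.42e-05. The 2 other HSP18.6 probe sets moved less: one, at a mean signal of 4.93, rose by 0.80 (adjusted p = 0.0031), and the other, at 3.15, differed by 0.27 (adjusted p = 0.37). The mean of all its probe sets rose by 1.02. The chosen probe set is of the kind that may also match transcripts of related genes. No comparable change was seen in the gs1;1 lines, where plants read 5.06 to 5.29 against 5.18 to 5.44 in NC2373 and 4.36 to 4.53 against 4.37 to 4.78 in ND8037. Those groups overlapped, with differences of -0.15 and -0.10.

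HSP17.9A (LOC4332357, chromosome 3) was among the brightest small HSPs of these roots. It read 11.43, 11.37 and 11.25 in wild type and 12.03, 11.99 and 12.19 in gs1;2. The groups did not overlap, and the rise was 0.72 (SE 0.16, adjusted p = 0.022). The call was lost without any 1 of wild type 627, 628 or 629 or mutant 355 or 356, at adjusted p from 0.0506 to 0.111, with the difference between 0.66 and 0.76 throughout. HSP24.1 (LOC4330786, chromosome 2), a mitochondrial small HSP, read 8.00, 8.19 and 7.87 in wild type and 8.65, 8.71 and 8.49 in gs1;2. Again every mutant plant lay above every control plant. It rose by 0.60 (SE 0.142, adjusted p = 0.030), which was no longer called without wild type 627 or 629 or any of the 3 mutant plants (0.0705 to 0.107).

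The remaining rises in gs1;2 were smaller. HSP16.0 (LOC4340661, chromosome 6), a peroxisomal small HSP of low signal, read 4.24, 4.04 and 4.00 in wild type and 4.59, 4.57 and 4.58 in gs1;2, a rise of 0.49 (SE 0.106, adjusted p = 0.020). The call was lost without wild type 628 or 629 or mutant 355 or 356 (0.0509 to 0.0845). HSP81-1 (LOC4345951, chromosome 8), a cytosolic HSP90, read 11.79, 11.78 and 11.74 in wild type and 12.12, 12.18 and 12.02 in gs1;2. It rose by 0.34 (SE 0.0772, adjusted p = 0.025), and the call was lost without any 1 of the 6 plants (0.0544 to 0.0992). Its other probe set differed by 0.09, and the mean of both, at 0.21, was not called (adjusted p = 0.51). For HSP16.0, HSP81-1 and HSP24.1 NC2373 null, the control of another line in the same array set, also read above every wild-type plant: 4.52 to 4.67 for HSP16.0, 12.01 to 12.21 for HSP81-1 and 8.29 to 8.59 for HSP24.1. Its difference from wild type was 0.42 for HSP24.1, which did not pass (adjusted p = 0.20).

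**Figure D2:**
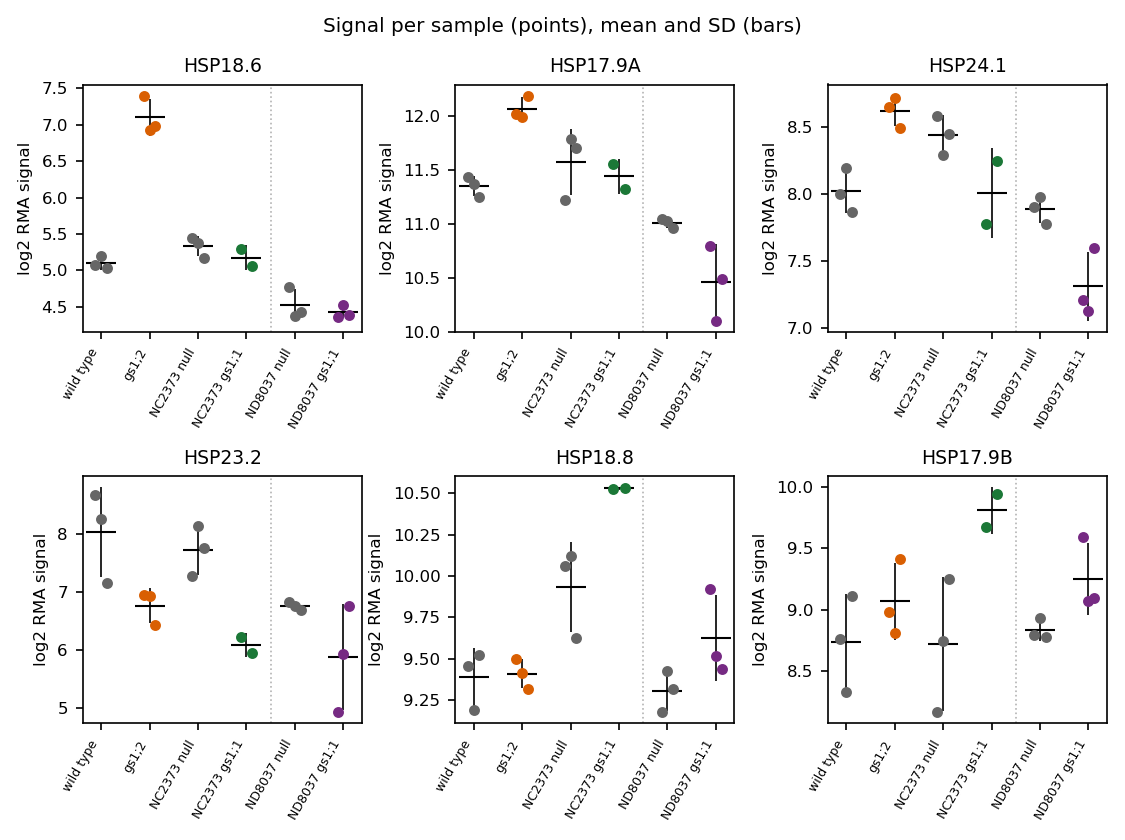
Signal of 6 small HSP genes on the log2 scale (vertical axes, which do not start at 0) in every plant, by group, with the mean and SD. The dotted line parts the 2 array sets, between which levels are not compared. HSP18.6 stands at 6.93 to 7.40 in gs1;2 and at 5.03 to 5.20 in wild type, and HSP23.2 has a lower mean in each mutant than in its control, with overlap in ND8037.

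Of the 19 small HSPs 15 had a positive difference in gs1;2 and 4 a negative one, and 4 passed the test. Over the 43 members the signs were 32 positive and 11 negative. The share of positive signs over all probe sets was not counted, and their median was itself positive, at 0.022. All members were read on the same arrays, so the signs are not separate observations. For 12 of the 19 the gs1;2 and wild-type plants overlapped, for 5 the mutant plants lay wholly above and for 2 wholly below. Over all members 9 of 43 lay wholly above and 3 wholly below, where 13.2% and 11.7% of all probe sets did. HSP17.4, HSP17.7 and HSP18.1, cytosolic class I genes beside HSP17.9A on chromosome 3, differed by 0.38, -0.12 and 0.46 without passing the test. The HSP18.1 probe set may also match related transcripts. The mean signal of the 19 genes was 6.51 to 6.67 in gs1;2 and 6.40 to 6.46 in wild type; without HSP18.6 it was 6.49 to 6.62 and 6.46 to 6.53, which overlap.

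HSP23.2 and HSP26.2 had negative differences in gs1;2 that missed the threshold. HSP23.2 (LOC4335956, chromosome 4), a small HSP of the endoplasmic reticulum, read 8.66, 8.26 and 7.16 in wild type and 6.95, 6.92 and 6.42 in gs1;2. The wild-type plants were spread over more than 1 log2 unit, and the difference of -1.26 (SE 0.399) had an adjusted p of 0.091. Without wild type 629, the lowest control plant, it was -1.70 with an adjusted p of 0.020. Leaving out any other single plant gave no call. HSP26.2, a mitochondrial form, read 7.39, 7.40 and 7.05 against 6.89, 6.41 and 6.09, with no overlap, and its difference was -0.82 (SE 0.256, adjusted p = 0.090). Its only probe set is of the kind that may also match related transcripts.

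In the NC2373 mutant, 2 members rose and 2 fell, all small HSPs, where 4.07% of all probe sets rose and 3.58% fell, 7.65% together, and 14.1% were called with 1 probe set per gene. The median difference was 0.0024 over the members, -0.15 over the small HSPs and -0.020 over all probe sets. In the ND8037 mutant, 2 rose and 3 fell, where 4.40% of all probe sets rose and 4.68% fell, 9.08% together, and 15.9% were called with 1 per gene. Its medians were -0.096 over the members, -0.10 over the small HSPs and -0.036 over all probe sets. With the effects of both lines averaged, 4 members rose and 4 fell, where 6.87% of all probe sets rose and 7.09% fell, 14.0% together, and 24.6% were called with 1 per gene. The calls numbered 0 to 2 in the NC2373 mutant without null 152 or 153 or either mutant plant and 5 without null 154. Without null 154, HSP17.7 and HSP17.9B kept their calls and HSP18.8 and HSP23.2 lost theirs, so the rest of the 5 had not been called with all plants. In the ND8037 mutant the calls numbered 0 to 3 without any 1 plant.

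HSP23.2 had the most negative difference of the small HSPs in both gs1;1 lines. It read 7.28, 8.13 and 7.76 in NC2373 null 152, 153 and 154 and 6.23 and 5.95 in mutants 117 and 118. Both mutant plants lay below every null plant, a fall of 1.64 on the log2 scale (SE 0.446, adjusted p = 0.037) or 3.11-fold. In ND8037 it read 6.83, 6.76 and 6.69 in null 156, 157 and 158 and 4.93, 5.94 and 6.75 in mutant 123, 124 and 125. The first mutant plant was far below the nulls and the last among them, and the difference of -0.89 (SE 0.399) missed the threshold at an adjusted p of 0.18. Averaged over the lines the gene fell by 1.26 (SE 0.299, adjusted p = 0.011), and the call held without each of the 11 plants in turn (0.0025 to 0.0474). The call in NC2373 alone was lost without null 153 or 154 or either mutant plant (0.0749 to 0.204).

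HSP17.9B and HSP18.8 rose. HSP17.9B (LOC4325695, chromosome 1) read 8.17, 8.75 and 9.25 in NC2373 null and 9.67 and 9.94 in the NC2373 mutant. The null plants were spread widely, yet both mutant plants lay above them, and the rise was 1.08 (SE 0.279, adjusted p = 0.029) or 2.12-fold. The call was lost without null 152 or 153 or either mutant plant (0.0575 to 0.192). In ND8037 it read 8.79, 8.93 and 8.78 against 9.59, 9.07 and 9.09, again with no overlap, and the difference was 0.42 (SE 0.249, adjusted p = 0.33). The mean over the lines was 0.75 (SE 0.187, adjusted p = 0.014), lost without NC2373 mutant 118 (0.0661). HSP18.8 (LOC4343386, chromosome 7) read 10.06, 10.12 and 9.62 in NC2373 null and 10.53 and 10.54 in the mutant, a rise of 0.60 (SE 0.161, adjusted p = 0.036). Its only probe set is of the kind that may also match related transcripts. That call was lost without null 152 or 154 or either mutant plant (0.0582 to 0.162). In ND8037 it read 9.18, 9.43 and 9.32 against 9.92, 9.51 and 9.44. The lowest mutant plant stood just above the highest null plant, and 0 small HSPs were called higher in this line. The mean rise of 0.46 (SE 0.108, adjusted p = 0.011) held without each plant in turn (0.0086 to 0.0408).

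HSP24.1, which rose in gs1;2, fell in gs1;1. In ND8037 it read 7.90, 7.98 and 7.78 in the null and 7.21, 7.13 and 7.60 in the mutant. The groups did not overlap, and the fall was 0.58 (SE 0.142, adjusted p = 0.022), lost without null 156 or 157 or mutant 123 or 124 (0.0525 to 0.0881). In NC2373 it read 8.59, 8.29 and 8.45 against 7.77 and 8.24, a difference of -0.43 (SE 0.159, adjusted p = 0.12). The mean over the lines fell by 0.50 (SE 0.107, adjusted p = 0.0057) and held without each plant in turn (0.0019 to 0.0441). It was the 1 member called both in gs1;2 and in the mean of the gs1;1 lines, and the directions were opposite.

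The other small HSPs called in gs1;1 belong to the cytosol. HSP17.7 (LOC4332363, chromosome 3), of class I, read 9.23, 8.93 and 9.11 in NC2373 null and 8.43 and 8.50 in the mutant, a fall of 0.62 (SE 0.148, adjusted p = 0.020). The call was lost without null 152 or either mutant plant (0.0785 to 0.122). Its other probe set, at a mean signal of 2.23, differed by 0.10, and the mean of both, at -0.26, was not called (adjusted p = 0.11). The chosen one differed by -0.15 in ND8037, and the mean fell by 0.38 (SE 0.0995, adjusted p = 0.018), lost without NC2373 mutant 117 (0.0708). HSP17.9A read 11.04, 11.03 and 10.96 in ND8037 null and 10.80, 10.10 and 10.49 in the mutant, a fall of 0.55 (SE 0.16, adjusted p = 0.045) with no overlap. That call was lost without any 1 of 5 plants, all but mutant 123 (0.0899 to 0.156), and the NC2373 difference was -0.13. HSP18.0 (LOC4325342, chromosome 1), of class II, moved least: the mean fell by 0.16 (SE 0.0504, adjusted p = 0.041), from -0.15 in NC2373 and -0.17 in ND8037. It was lost without any of 8 of the 11 plants (0.0583 to 0.197), and its 2 other probe sets differed by 0.05 and -0.08. The mean of all 3, at -0.065, was not called (adjusted p = 0.53). The chosen HSP18.0 probe set may also match related transcripts.

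Among the larger chaperones 1 gene was called in gs1;1. HSP81-2 (LOC4347402, chromosome 9), a cytosolic HSP90, read 12.44, 12.18 and 12.35 in ND8037 null and 12.72, 12.48 and 12.66 in the mutant. The mutant plants lay just above the nulls, a rise of 0.30 (SE 0.0866, adjusted p = 0.046) that was lost without null 157 or 158 or mutant 123 or 125 (0.0887 to 0.168). It was also lost under quantile normalisation (0.0555), with array weights (0.073) and when the fit held just the ND8037 groups (0.156). In NC2373 it differed by 0.17, and the mean rose by 0.23 (SE 0.065, adjusted p = 0.026), lost without any of 6 of the 11 plants (0.0531 to 0.0988). Its neighbour HSP81-3 differed by 0.05 and 0.19, read through a probe set of the kind that may match transcripts of both genes. HSP101 differed by -0.22 in NC2373, -0.13 in ND8037 and 0.03 in gs1;2, with adjusted p of 0.49, 0.64 and 0.93.

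Of the 20 HSFs, 0 passed the test in the NC2373 mutant and 0 in gs1;2. At p under 0.05 in limma without adjustment, 5 were higher and 2 lower in the first. In the second, 4 were higher and 1 lower at that cutoff, for which no share of all probe sets was counted. In the ND8037 mutant, 1 rose and 1 fell, and 1 rose in the mean of the lines. The HSF median was 0.086 in NC2373, -0.094 in ND8037 and 0.10 in gs1;2. HSFA1, whose tomato relative is known as a master activator of the heat response, differed by 0.01 in NC2373, -0.09 in ND8037 and 0.04 in gs1;2, with no plant of the first array set outside 9.95 to 10.16.

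**Figure D3:**
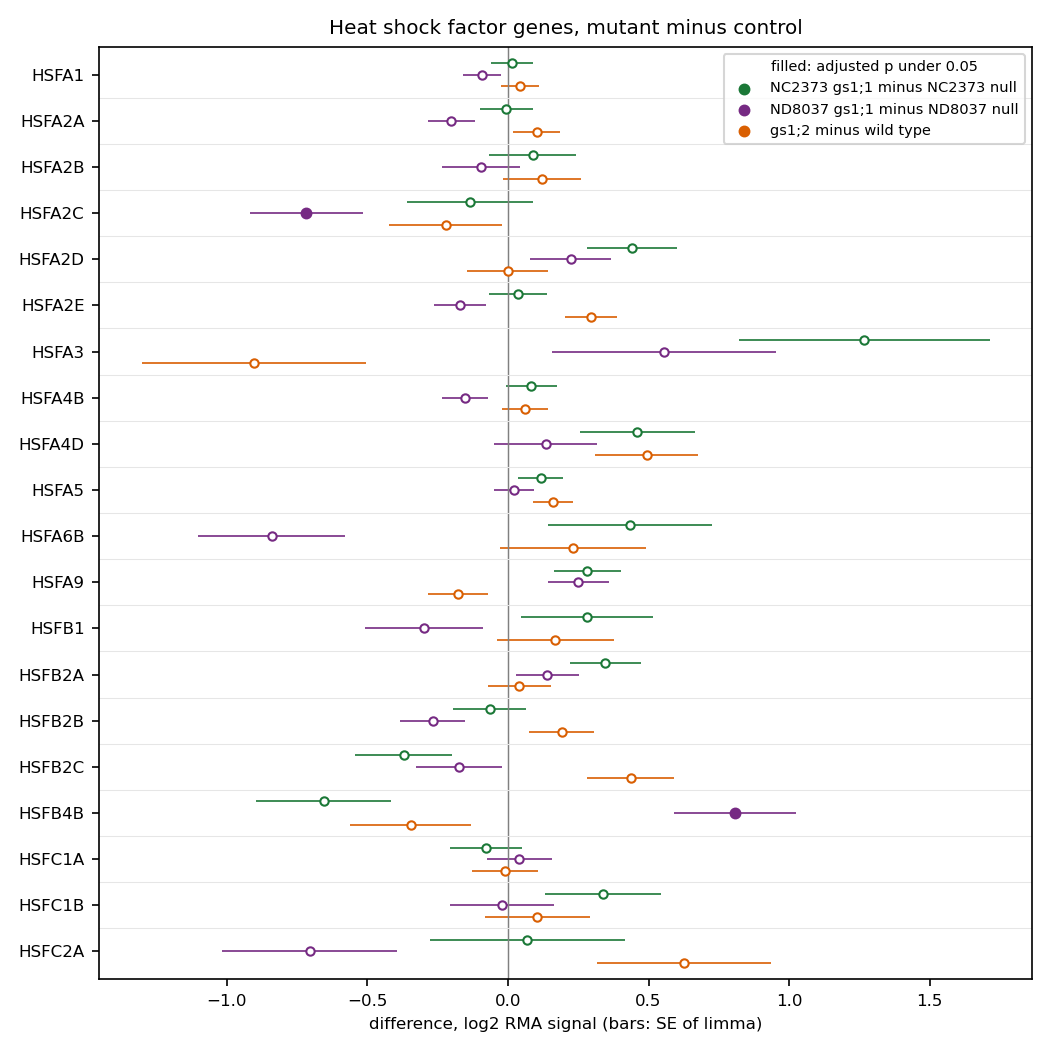
Difference between mutant and control for each HSF gene on the log2 scale (horizontal axis), in the same colours as for the HSPs. Bars are the SE of the fit, and filled points have an adjusted p under 0.05. Only HSFA2C at -0.72 and HSFB4B at 0.81, both in ND8037 gs1;1, are filled, and HSFA3 has the widest bars.

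HSFA2C (LOC4348646, chromosome 10), a class A factor, read 8.89, 9.02 and 8.73 in ND8037 null and 8.44, 7.96 and 8.08 in the ND8037 mutant. The groups did not overlap, and the fall was 0.72 (SE 0.201, adjusted p = 0.038). The call was lost without any 1 of 5 plants, all but mutant 123 (0.0631 to 0.125). Its other probe set differed by -0.22, and the chosen one by -0.14 in NC2373. The annotation lists HSFA2C and HSFA2D under entries that also carry names of acireductone dioxygenases, enzymes of methionine recycling, so the files do not settle which transcript these probe sets measure.

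HSFB4B (LOC4344063, chromosome 7), a class B factor, had opposite signs in the lines and was called in ND8037. It read 6.35, 6.09 and 5.49 in ND8037 null and 7.04, 6.50 and 6.81 in the mutant, a rise of 0.81 (SE 0.215, adjusted p = 0.031). In NC2373 it read 7.98, 7.61 and 8.18 against 7.37 and 7.17, a difference of -0.65 (SE 0.241, adjusted p = 0.12), with no overlap in either line. The lines' effects differed by 1.46 (SE 0.323), which missed the threshold at an adjusted p of 0.13. The ND8037 call was lost without null 157 or 158 or mutant 123 or 125 (0.0658 to 0.127), and the other probe set differed by 0.13 there. The mean of both, at 0.47, was not called (adjusted p = 0.053). The chosen probe set may match related transcripts.

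HSFA9 (LOC4332113, chromosome 3), whose sunflower relative is known from seed development, read 7.16, 7.15 and 7.13 in ND8037 null and 7.47, 7.35 and 7.37 in the mutant. In NC2373 it read 7.71, 7.79 and 8.06 against 7.91 and 8.36, with overlap. The differences of 0.25 and 0.28 did not pass alone, and their mean of 0.27 (SE 0.0806, adjusted p = 0.039) did, but was lost without any of 9 of the 11 plants (0.0517 to 0.235). HSFA3 had the largest HSF differences in NC2373 and gs1;2 and the widest spread. It read 6.17, 5.87 and 6.26 in NC2373 null and 6.92 and 7.81 in the mutant, a difference of 1.27 (SE 0.446, adjusted p = 0.10). In wild type it read 8.54, 8.15 and 6.61 and in gs1;2 6.50, 6.88 and 7.22, a difference of -0.90 (SE 0.398, adjusted p = 0.23) in which wild type 629 lay among the mutants.

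**Figure D4:**
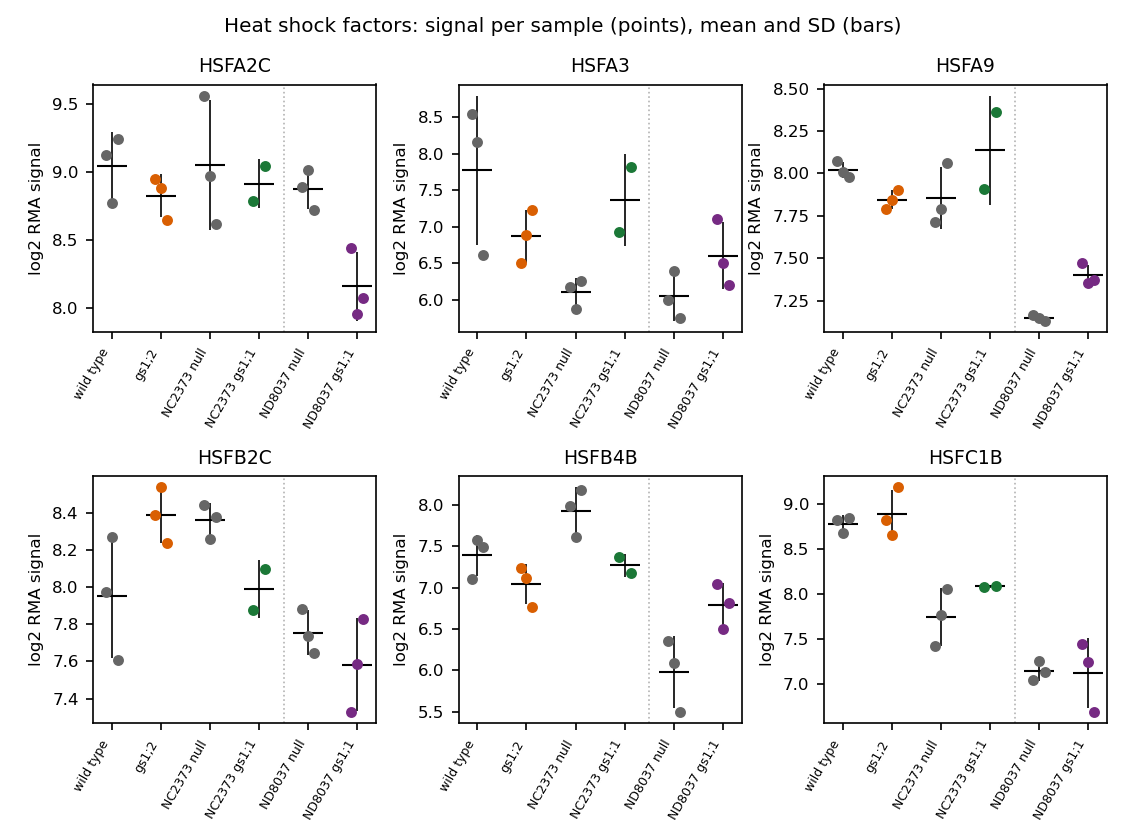
Signal of 6 HSF genes on the log2 scale (vertical axes, which do not start at 0) in every plant, by group, with the mean and SD. The dotted line parts the 2 array sets. HSFB4B is lower in NC2373 gs1;1 than in its null and higher in ND8037 gs1;1 than in its null, and HSFA3 runs from 6.61 to 8.54 within wild type.

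HSFB2C, a class B factor, gave unlike differences in gs1;2 through its 3 probe sets. The chosen one read 7.97, 8.27 and 7.61 in wild type and 8.38, 8.54 and 8.24 in gs1;2, with a difference of 0.44 (SE 0.154, adjusted p = 0.13). Another, at a mean signal of 7.72, rose by 1.08 (adjusted p = 0.0014), and the last, at 6.16, differed by 0.36 (adjusted p = 0.19). The one that rose was picked out after its values were seen.

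Of the 43 members 0 were called in both gs1;1 lines, where 2.11% of all probe sets and 4.23% with 1 per gene were. The same sign in both lines was seen for 26 members, or 60.5%, and for 57.9% of all probe sets and 60.6% with 1 per gene. For the small HSPs 12 of 19 had the same sign. The test of the difference between the lines called 0 members. Of all probe sets it called 0.00349% higher and 0.00524% lower, 0.00873% together, and 0.0112% with 1 per gene. Without adjustment, at p under 0.05 in limma, 5 members were higher and 1 lower, and no share of all probe sets was counted at that cutoff. For all 12 class A factors the ND8037 difference lay below that of NC2373, and 0 of the 12 passed. Their median gap was -0.21, with a median SE of 0.18. This was not particular to class A: the median gap was -0.20 over the 5 class B factors and -0.36 over the 3 of class C. Of all 20 HSFs, 17 had a negative gap and 3 a positive one. The median gap over all probe sets was -0.028, and their share with a negative gap was not counted. These factors were read on the same arrays. NC2373 mutant plants lay wholly above the nulls for 10 members and wholly below for 10, where 15.9% and 20.0% of all probe sets did. For ND8037 the counts were 6 and 12, where 11.9% and 16.5% did.

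The effect of gs1;1 in NC2373 was tested directly against that of gs1;2, each against its own control in the same array set. The effects differed for 3 of 43 members, all more negative in NC2373, where 2.36% of all probe sets had a positive gap and 1.64% a negative one, 4.00% together, and 7.24% with 1 per gene. HSP18.6 had the largest called gap, -2.16 (SE 0.199, adjusted p = 6e-05). The gap for HSP24.1 was -1.03 (SE 0.214, adjusted p = 0.016), lost without NC2373 mutant 117 (0.0849), and that for HSP81-1 was -0.51 (SE 0.116, adjusted p = 0.025). The HSP81-1 call was lost without NC2373 null 152, NC2373 mutant 118 or gs1;2 354 or 355 (0.0527 to 0.103), and with the mean of both probe sets the gap was -0.0033. The difference between the 2 controls enters each gap. NC2373 null and wild type had means of 12.10 and 11.77 for HSP81-1, 8.44 and 8.02 for HSP24.1, and 5.33 and 5.10 for HSP18.6. HSP23.2 was negative in both mutants, with a gap of -0.37 (SE 0.598, adjusted p = 0.79). HSP17.9A and HSFA3 fell just short, with gaps of -0.85 (adjusted p = 0.062) and 2.17 (adjusted p = 0.056).

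**Figure D5:**
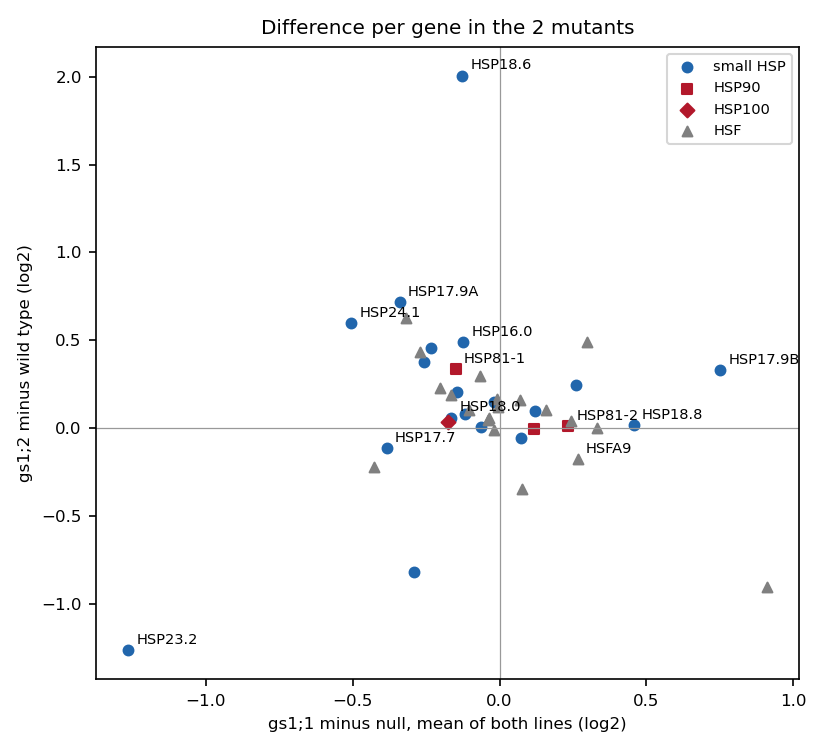
Difference on the log2 scale for each of the 43 genes in gs1;1, as the mean of both lines (horizontal axis), and in gs1;2 (vertical axis), with symbols by class. Named points are genes called in either comparison. HSP18.6 lies at -0.13 and 2.01, HSP24.1 at -0.50 and 0.60, and HSP23.2 at -1.26 on both axes.

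The controls themselves differed for 2 of 43 members, NC2373 null against wild type, where 0.428% of all probe sets were higher in the null and 0.486% lower, 0.913% together, and 1.54% with 1 per gene. HSFC1B (LOC4324158, chromosome 1), a class C factor, read 7.42, 7.77 and 8.05 in NC2373 null and 8.82, 8.68 and 8.84 in wild type, lower by -1.03 (SE 0.185, adjusted p = 0.017) on the log2 scale. The call was lost without null 152 or wild type 627 (0.0768 to 0.0859). HSP16.0 was higher in NC2373 null by 0.48 (SE 0.106, adjusted p = 0.049), lost without any 1 of the 6 plants (0.0763 to 0.132). This comparison and that of gs1;2 share the wild-type plants. HSP81-1, not called here, was higher in the null by 0.33. It was called with the filter at a mean of 5 (limma adjusted p = 0.040) and with a trended robust variance (0.043). HSP18.8, also not called, read 9.62 to 10.12 in NC2373 null and 9.19 to 9.52 in wild type. For HSP17.7 the NC2373 mutant plants, at 8.43 to 8.50, lay within the wild-type range of 8.41 to 8.97. Over all members, 21 differences were positive and 22 negative. HSFA3 was lower in the null by a difference of -1.67 (SE 0.398) that missed the threshold at an adjusted p of 0.066. Of the 7 green tissue genes 2 were called, both higher in NC2373 null: OsrbcS by 1.93 (adjusted p = 0.034) and OsPSAG by 0.95 (adjusted p = 0.032).

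Of the members, 10 had another within 10 genes. HSP16.6, HSP17.9B, HSP16.9A and HSP16.9B lie within 5 genes on chromosome 1, in the order of the RefSeq annotation, and HSP17.9B alone among these 4 was called. HSP17.9A, HSP17.4, HSP18.1 and HSP17.7 lie within 8 genes on chromosome 3, in that order. Their differences were 0.72, 0.38, 0.46 and -0.12 in gs1;2 and -0.55, -0.25, -0.56 and -0.15 in the ND8037 mutant, and HSP17.9A alone was called in each. In the NC2373 mutant they were -0.13, -0.26, 0.09 and -0.62, and HSP17.7 alone was called. The annotation of HSP16.9A carries the HSP16.9B name too. Over the 17 plants, deviations from the group means had a median Pearson correlation of 0.036 over 171 pairs of small HSPs and 0.14 over 190 pairs of HSFs. The most alike pair was HSP81-2 and HSP81-3, at 0.89, neighbours within 4 genes on chromosome 9. The HSP81-3 probe set is of the kind that may match transcripts of both genes, so this pair may not be 2 separate readings. Next came HSP17.9B with HSFB1 at 0.85 and with HSFC1B at 0.79. The most negative pairs were HSP21.9 with HSFA2C at -0.78 and HSP101 with HSFA1 at -0.76. All these are extremes picked from the pairs of all members, whose median was 0.042. These correlations describe pairs that share arrays, and no test was made of them.

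Other folding and heat response genes, such as BiP, protein disulfide isomerases, DnaJ proteins, Clp ATPases and ascorbate peroxidases, were counted as a list of 37. In gs1;2, 0 of the 37 were called, where 6.86% of genes were by 1 probe set each, and the median was -0.12. At p under 0.05 in limma without adjustment, 3 were higher and 10 lower, and no share of all genes was counted at that cutoff. In the NC2373 mutant, 4 rose and 0 fell, where 14.1% of genes were called, with a median of -0.058. They were APX8, a thylakoid ascorbate peroxidase, by 2.15, DJA6 by 0.84, the plastid Clp ATPase CLPC2 by 0.68 and the plastid disaggregase CLPB-C by 0.40; the green tissue genes given above were higher in the same plants. In the ND8037 mutant, 8 rose and 3 fell, where 15.9% of genes were called, with a median of 0.10. The largest were the disulfide isomerases OsPDIL2-1 and OsPDIL1-4, which rose by 0.73 and 0.52, the DnaJ protein DJB6, by 0.61, and the ascorbate peroxidase APX6, by 0.53. In the mean of the lines 6 rose and 3 fell, where 24.6% of genes were called, among them APX8 at 1.62, DJA6 at 0.54, DJB6 at 0.46 and OsPDIL1-3 at -0.55. Without null 152 or mutant 117 the NC2373 count was 0, and without null 153 or mutant 118 it was 2. The ND8037 count was 3 to 8 without any 1 plant, that of the mean 5 without NC2373 mutant 117, and that of gs1;2 1 without wild type 629.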

How the data were processed

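RNA from 17 root samples was hybridised to the Affymetrix rice array, 1 array per sample, after extraction with an RNeasy kit and biotin labelling with a 3' IVT kit, per the labels' protocols. The deposited table holds log2 values that the authors made with RMA, per the submitters' processing notes (version not given in the sources used here). The method sets arrays to a common distribution, so levels are comparable only among arrays normalised together, and the number of arrays limits precision.

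Of 57381 probe sets, 123 controls were left out and 57258 tested, with no filter on signal. Names came from the platform annotation, updated by gene identifier from a RefSeq gene table: 22436 probe sets had 1 gene, all found there, 95 had several and were not named, and 34727 have none listed here. Of the 95, 2 named an HSP90 gene and were not used. Chromosomes and gene order came from the RefSeq gene table. No genome sequence was used, so no base positions or sequences are given, and a planned search of promoters for heat shock elements was not run.

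Groups came from titles and genotype labels. limma 3.58.1 (R 4.3.3) fitted 1 mean per group over all 17 samples, with 11 residual and 3.83 prior degrees of freedom. p-values are two-sided, Benjamini-Hochberg adjusted over the 57258 probe sets, with calls made under 0.05, and the fit was tested on simulated data. There were 7 comparisons: each gs1;1 line against its null, their mean and difference, gs1;2 against wild type, the NC2373 against the gs1;2 effect, and NC2373 null against wild type. The text names every member called in any of them, the member with the highest mean of each size class, and up to 4 called genes of the folding list per comparison. Others (HSP16.6, HSP16.9A, HSP16.9B, HSP17.4, HSP18.1, HSP26.2, HSP26.7, HSFA1, HSFA2D, HSFA3, HSFB2A, HSFB2C and single marker genes) were named after their values were seen. Members and lists were chosen with earlier results of these data known. Alternatives were quantile normalisation, median centring, a filter at a mean of 5, only the compared groups in the fit, a trended robust variance, array weights, the mean of a gene's probe sets, and leaving out each array.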

Additional observations from a re-analysis of the deposited data

Results flagged for a closer look

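For 3 genes the effect of gs1;1 in NC2373 differed from that of gs1;2 by the test of the difference itself, 3 of 43 where 7.24% of genes and 4.00% of all probe sets did. The gap, NC2373 gs1;1 effect minus gs1;2 effect on the log2 scale, was -2.16 for HSP18.6, from -0.15 and 2.01. It was -1.03 for HSP24.1, from -0.43 and 0.60, and -0.51 for HSP81-1, from -0.17 and 0.34. Part of each gap lay between the controls: NC2373 null and wild type had means of 8.44 and 8.02 for HSP24.1 and 12.10 and 11.77 for HSP81-1. For HSP18.6 these means were 5.33 and 5.10. The HSP24.1 call was lost without NC2373 mutant 117 (adjusted p = 0.0849), and with the mean of both probe sets the HSP81-1 gap was -0.0033. For HSP18.6 the gap stayed called under all 18 alternatives, between -2.28 and -1.16, with adjusted p from 3.59e-05 to 0.00102. Among these alternatives, the filter at a mean of 5 is passed by HSP18.6 with its high gs1;2 values in that mean, so it adds no support. No group held more than 3 samples, so single outlying samples were not searched for.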

How the results depend on the processing

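No called value changed sign under any alternative run. No paired analysis was possible because the compared groups share no replicate numbers. Of the values of the 15 called genes over the 7 comparisons, 1430 stayed on their side of the threshold under an alternative, 122 lost a call and 16 gained one, and uncalled values turned sign in 52. Of 27 calls, 14 were lost when the fit held just the groups compared (adjusted p 0.0506 to 0.195), 5 with the mean of a gene's probe sets, 3 under quantile normalisation, 2 with array weights, 2 with a trended robust variance and 1 under median centring. In the first of these, members called went from 4 to 2 in the NC2373 mutant, from 5 to 2 in the ND8037 mutant and from 5 to 2 in gs1;2. In ND8037, HSFA2C alone of the 5 kept its call, and the other member had not been called in the main fit. For NC2373 null against wild type the number went from 2 to 0, and quantile normalisation took it to 1. The contrast of NC2373 and gs1;2 effects went from 3 to 6 with array weights and to 6 with the filter at a mean of 5. Leaving out 1 array gave 0 to 5 members in the NC2373 mutant, 0 to 3 in the ND8037 mutant, 5 to 12 in their mean, 0 to 0 in their difference, 1 to 3 in gs1;2, 2 to 4 in the contrast of effects and 0 to 3 between the controls. A lone NC2373 mutant plant is then assumed to vary like the other groups. Over all probe sets, fitting only the compared groups changed the calls from 4382 to 2189, 5200 to 3213, 2310 to 615 and 523 to 20 in the same order, and from 5 to 102 for the difference of the lines, where the filter gave 2. Leaving out 1 array gave as few as 1525, 2075, 555 and 118, as few as 5260 of 7991 for the mean, 990 of 2289 for the contrast of effects and 1 to 22 for the difference of the lines, and as many as 1036 between the controls. HSP18.6 in gs1;2 and HSP18.8, HSP23.2 and HSP24.1 in the mean of the gs1;1 lines kept their calls under every alternative run. HSP18.6 passed the filter at a mean of 5 with 5.28 over all samples. Its group mean was 7.11 in gs1;2 and 4.43 to 5.33 in the other groups. That filter leaned on the group where the gene is high and is no support for its call.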

Other observations

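Some members have further probe sets that moved where the chosen one was not called, all picked out after their values were seen. A second probe set of HSFB2A, a class B factor, differed by 0.55 in the NC2373 mutant (limma adjusted p = 0.045) and by 0.21 in the ND8037 mutant. That of HSFA2D, listed with acireductone dioxygenase names, differed by 0.60 in the ND8037 mutant (adjusted p = 0.039) and by 0.42 in the NC2373 mutant. A second probe set of HSP81-3, at a mean signal of 11.47, was higher by 0.29 in the mean of the gs1;1 lines (adjusted p = 0.034), near the 0.23 of its neighbour HSP81-2. The second HSFB2C probe set that rose in gs1;2 also gave a gap of -1.41 between the NC2373 gs1;1 and gs1;2 effects (adjusted p = 0.0042).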
